A study of Mus musculus with 8 samples.

Results

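The ventricle of the mouse at postnatal day 24 (P24), about the age of weaning, was compared with that of the newborn at postnatal day 3 (P3), gene by gene. The comparison rests on 4 of the 8 libraries of a stage series, 2 for P24 and 2 for P3. Genes entered it when their normalized count was at least 10 in 2 or more of these 4 libraries, which kept 13816 of the 21970 genes in the table. Both groups were whole ventricle, the lower chambers of the heart with all their cell types, of C57BL/6J mice, an inbred strain. The labels name no treatment, allele, sex or litter. They do not say whether the 2 libraries of a stage came from separate animals or from pools, so each p-value reflects the spread among the libraries alone, which may be technical. The other 4 libraries, from P6 and P12, entered the fit to share its estimate of spread and show the course between the end points.

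In the first weeks after birth the heart muscle cells of the mouse stop dividing and afterwards grow by enlargement. They replace fetal forms of contractile and metabolic proteins with adult forms of the same family, fold their membrane into T-tubules that bring calcium channels close to the sarcoplasmic reticulum, and turn from glucose to fatty acids as their main fuel. Fibroblasts build the matrix around them, and macrophages settle in the tissue. Retinoic acid, made from vitamin A by aldehyde dehydrogenases, acts through nuclear receptors of the RAR and RXR families and is needed for growth of the ventricular wall in the embryo.

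Reads in protein-coding genes numbered 23806610 and 26478665 in the P24 libraries and 23752999 and 23691022 in the P3 libraries. Over all genes, the median absolute log2 difference between replicates was 0.12 at P24 and 0.15 at P3. Transcripts that define ventricle were present at both stages. Myl2, the ventricular myosin light chain, had 239580 and 254640 in P24 libraries, against 227080 and 258010 in P3 libraries, and Irx4, a ventricular transcription factor, had 1343 and 1355 in P24 libraries, against 1827 and 2214 in P3 libraries. One P3 library stood apart in genes of atria and of matrix. Myl7, the atrial myosin light chain, had 131 and 111 normalized counts in the P24 libraries and 4004 and 52.4 in P3 replicates 1 and 2. Col1a1, a collagen chain, had 3859.8 and 4095 in the P24 libraries and 37995 and 11768 in P3 replicates 1 and 2. Y-linked genes had 2 and 5260 reads in P24 replicates 1 and 2, and 4 and 2 reads in the P3 libraries.

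A gene was called changed where its adjusted p from limma, a linear model fitted to every gene at once, was below 0.05 after Benjamini-Hochberg (BH) adjustment. Log2 changes are P24 minus P3 on the scale of the normalized count plus 1. Of the 13816 genes, 5181 changed (37.5%), of which 2624 rose (19.0% of genes tested) and 2557 fell (18.5%). Rises and falls were alike in number but not in size. At least 2-fold changes numbered 1347 up and 1451 down, at least 8-fold changes 144 up and 327 down, and at least 16-fold changes 60 up and 142 down. In 38.9% of all genes both P24 libraries lay above both P3 libraries and in 39.9% both lay below, so separation of the groups is common here. The count of changed genes was 3059 without P24 replicate 1, 3132 without P24 replicate 2, 3200 without P3 replicate 1 and 3420 without P3 replicate 2, and 2615 genes kept their call whichever of the 8 libraries was omitted. Without a P6 library it was 7798 or 7802, and the same median for the P6 replicates was 0.39. Scaling by library size alone moved the median of all genes by -0.35 on the log2 scale and called 6493 genes, of which 23.3% rose, against 50.6% with the deposited scaling. The 10 most abundant genes held 24.002% and 24.7% of the normalized counts in P24 libraries, against 14.8% and 16.4% in P3 libraries. Below, a list of genes is described by its calls and its median log2 change, to be read against these all-gene shares and the all-gene median of -0.01. Lists count members that passed the filter on low values, and a member that passed through only the stage in which it was high had to differ.

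**Figure D1:**
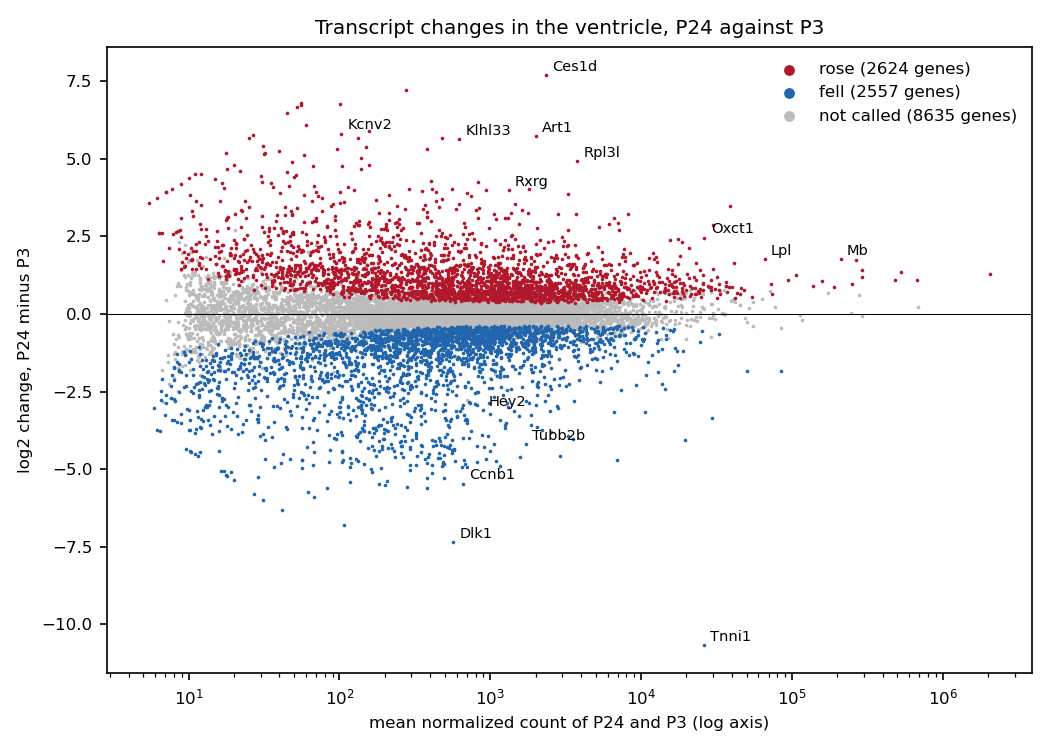
Log2 change of P24 minus P3 for 13816 genes (vertical axis) against the mean normalized count of the P24 and P3 libraries (horizontal, log axis); each point is a gene, red where it rose, blue where it fell and grey where it was not called. The falls reach further from 0 than the rises, with 144 genes up and 327 down at least 8-fold, and Tnni1 lies lowest.

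The 20 largest rises included a kelch gene, an ectoenzyme of muscle, a steroid enzyme and channel subunits best known from photoreceptors. Klhl33, a kelch-repeat gene, had 1325 and 1109 in P24 libraries, against 25.3 and 21.8 in P3 libraries (log2 change 5.63 ± 0.21 (SE); BH-adjusted p = 8.20e-07). Art1, an ADP-ribosyltransferase of the muscle cell surface, had 4143 and 3745 in P24 libraries, against 50.6 and 105 in P3 libraries (log2 change 5.74 ± 0.32 (SE); BH-adjusted p = 3.46e-06). The genes of this paragraph were picked for the size of their rise, so a wide gap between stages follows largely from that choice. Hsd11b1, the enzyme that regenerates active glucocorticoid inside cells, had 234 and 309.9 in P24 libraries, against 9.49 and 5.46 in P3 libraries (log2 change 5.04 ± 0.36 (SE); BH-adjusted p = 1.19e-05). Gsta3, a glutathione transferase, had 305 and 305 in P24 libraries, against 8.44 and 12.01 in P3 libraries (log2 change 4.79). Both enzymes were low in both P3 libraries. Cngb3, a subunit of the cyclic nucleotide-gated channel of cones, had 324 and 299 in P24 libraries, against 3.16 and 5.46 in P3 libraries (log2 change 5.91). Kcnv2, a modulatory potassium channel subunit also of photoreceptors, had 205 and 200.4 in P24 libraries, against 5.27 and 1.09 in P3 libraries (log2 change 5.81 ± 0.71 (SE); BH-adjusted p = 0.000294). The P24 libraries of each of these channel genes lay close together. Hsd11b1, Cngb3 and Kcnv2 were below 10 in both P3 libraries, so they passed the filter through P24 alone and had to be higher there.

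The 20 largest falls included a fetal troponin, a hormone receptor, a tubulin-modifying gene and genes of the matrix. Tnni1, the slow skeletal troponin I that the fetal heart uses, had 28.5 and 33.2 in P24 libraries, against 44646 and 59147 in P3 libraries, a mean 1683-fold lower at P24 (log2 change -10.66 ± 0.54 (SE); BH-adjusted p = 2.45e-06). Rxfp1, the receptor of relaxin, had 17.6 and 18.4 in P24 libraries, against 738 and 752 in P3 libraries (log2 change -5.29 ± 0.28 (SE); BH-adjusted p = 2.82e-06). The genes of this paragraph were picked for the size of their fall, so a wide gap between stages follows largely from that choice. Vash2, a vasohibin that removes the terminal tyrosine of tubulin, had 18.97 and 29.5 in P24 libraries, against 941 and 973 in P3 libraries (log2 change -5.28). P4ha3, a prolyl hydroxylase of collagen, had 4.06 and 4.92 in P24 libraries, against 238 and 225 in P3 libraries (log2 change -5.41). Cemip, which takes part in the breakdown of hyaluronan, had 2.71 and 2.46 in P24 libraries, against 119 and 103 in P3 libraries (log2 change -4.96). P4ha3 and Cemip were below 10 in both P24 libraries, so they passed the filter through P3 alone and had to be lower at P24.

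**Figure D2:**
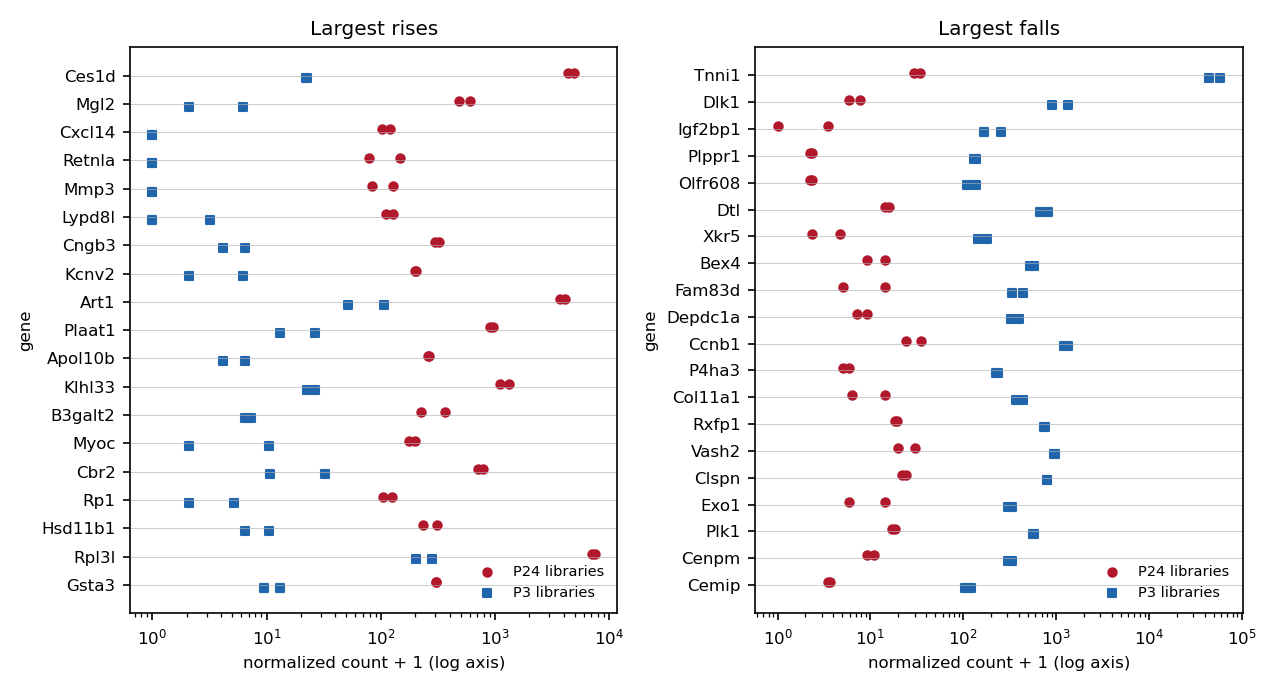
Normalized count plus 1 (horizontal, log axis) in each library for genes among the 20 largest rises (left, 1 not drawn) and for the 20 largest falls (right), taken from changed genes whose mean reached 100 at P24 or P3; red circles are P24 libraries and blue squares P3 libraries. The genes were picked for the size of their change in these libraries, so the separate colours follow largely from that choice. Tnni1, at 28.5 and 33.2 in P24 libraries and 44646 and 59147 in P3 libraries, has the widest gap among the falls.

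Some genes had no read in either library of one stage, and their folds are lower bounds, set against a floor of 3 reads per library. Retnla, a secreted product of alternatively activated macrophages, had 145 and 77.5 in P24 libraries, against 0 and 0 in P3 libraries, at least 34.5-fold higher at P24. Cxcl14, a chemokine, had 119 and 102 in P24 libraries, against 0 and 0 in P3 libraries, at least 34.4-fold higher, and Mmp3, the matrix protease stromelysin, had 126 and 82.4 in P24 libraries, against 0 and 0 in P3 libraries, at least 32.4-fold higher. All these P24 values lay well above the floor. Myh8, the perinatal myosin heavy chain of skeletal muscle, had 0 and 0 in P24 libraries, against 57.0 and 52.4 in P3 libraries, at least 14.1-fold lower at P24. Hand1, a transcription factor of the embryonic left ventricle, had 0 and 0 in P24 libraries, against 35.9 and 36.0 in P3 libraries, at least 9.27-fold lower. Bmp10, a ligand of embryonic trabeculae that is later made in atria, had 0 and 0 in P24 libraries, against 18.99 and 57.9 in P3 libraries, at least 9.91-fold lower. Its higher P3 value was in replicate 2, whereas Myl7 was high in replicate 1. Usp29, an imprinted member of the ubiquitin protease family, was at least 21.6-fold lower, with 114 and 53.5 in the P3 libraries.

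Transcripts of cell division fell together and far. Of 47 genes of mitosis and cytokinesis, 46 fell and 1 rose, with a median log2 change of -4.27. Of 46 genes of DNA replication and S phase, 44 fell and 0 rose, with a median of -2.75. Both lists were drawn up after values had been seen. Ccnb1, cyclin B1, had 33.9 and 23.4 in P24 libraries, against 1354 and 1217 in P3 libraries (log2 change -5.46 ± 0.23 (SE); BH-adjusted p = 9.81e-07). Dtl, which directs the replication licensing factor Cdt1 to degradation, had 13.5 and 14.8 in P24 libraries, against 810.2 and 680.1 in P3 libraries (log2 change -5.62 ± 0.19 (SE); BH-adjusted p = 8.20e-07). The P24 values of both genes lay far below the P3 values. Fewer cells of a type and less RNA per cell cannot be told apart in bulk tissue, here and in what follows. The riser was Pttg1, securin, which holds back the separation of sister chromatids, with 1943 and 1862 in P24 libraries, against 901 and 979 in P3 libraries (log2 change 1.02 ± 0.23 (SE); BH-adjusted p = 0.00783). That call was lost without P24 replicate 1 and without P3 replicate 1, where the adjusted p was highest at 0.0609. The smallest called fall of the mitosis list was that of Cenpa, the histone variant of centromeres, which had 1208 and 1092 in P24 libraries, against 1586 and 1941 in P3 libraries, with a BH-adjusted p of 0.0324 that was up to 0.204 in the 6 of 8 fits with a library left out in which the call was lost.

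The promoters of division genes shared short sequence elements. Promoters here are the 300 bases from 250 before to 50 after a gene's start in RefSeq on GRCm38.p6, and 10896 tested genes were matched to one by symbol. Motifs were searched on both strands and were chosen after their shares had been looked at. TTTGAA, the core of the cell cycle homology region that represses genes of mitosis in resting cells, was present in 29 of 40 mitosis promoters (72.5%), against 11.8% of all promoters. CCAAT, the box bound by NF-Y, was present in 29 of the 40 (72.5%), against 38.6% of all. Both were present in 23 of the 40 (57.5%), against 4.96% of all, and the matches overlapped in 14 of the 540 promoters with both. TTCCCGC, a core of E2F sites, was present in 18 of 36 S phase promoters (50%), against 8.37% of all, and in 1 of the 40 mitosis promoters. CCAAT was present in 25 of the 36 S phase promoters (69.4%), a share near that of the mitosis promoters. The promoters of Plk1, a mitotic kinase, Hmmr, a spindle-associated hyaluronan receptor, and Dtl are shown because these genes are among the steepest falls of their lists and hold the motifs. Plk1 lies at chr7:122159185-122159484 on the plus strand, Hmmr at chr11:40733388-40733687 on the minus strand and Dtl at chr1:191575495-191575794 on the minus strand. Capitals mark TTTGAA and CCAAT, or its reverse ATTGG, in Plk1 and Hmmr, and TTCCCGC and CCAAT in Dtl.
Plk1: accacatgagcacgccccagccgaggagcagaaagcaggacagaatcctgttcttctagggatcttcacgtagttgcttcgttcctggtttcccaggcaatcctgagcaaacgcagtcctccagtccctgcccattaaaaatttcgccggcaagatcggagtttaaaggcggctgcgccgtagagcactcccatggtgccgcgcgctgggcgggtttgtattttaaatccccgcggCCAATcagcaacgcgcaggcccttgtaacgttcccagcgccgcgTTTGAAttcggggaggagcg
Hmmr: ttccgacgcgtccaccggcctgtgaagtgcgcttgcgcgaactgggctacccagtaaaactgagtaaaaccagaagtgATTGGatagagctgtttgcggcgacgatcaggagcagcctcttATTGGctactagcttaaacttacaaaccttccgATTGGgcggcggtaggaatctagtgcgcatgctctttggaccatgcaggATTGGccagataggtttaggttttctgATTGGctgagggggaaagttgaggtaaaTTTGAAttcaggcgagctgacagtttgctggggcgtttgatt
Dtl: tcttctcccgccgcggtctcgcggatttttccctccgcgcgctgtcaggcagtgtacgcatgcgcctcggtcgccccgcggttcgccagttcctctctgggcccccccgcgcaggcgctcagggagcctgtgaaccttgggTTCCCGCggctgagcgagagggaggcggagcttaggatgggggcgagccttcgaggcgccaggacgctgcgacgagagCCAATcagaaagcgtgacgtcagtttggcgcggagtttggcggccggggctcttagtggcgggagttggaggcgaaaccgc
Plk1 had 16.3 and 17.2 in P24 libraries, against 562 and 585 in P3 libraries (log2 change -5.02 ± 0.21 (SE); BH-adjusted p = 1.08e-06), and Hmmr had 37.9 and 43.0 in P24 libraries, against 1295 and 1211 in P3 libraries (log2 change -4.92 ± 0.16 (SE); BH-adjusted p = 8.20e-07). A match describes letters in this window, not a bound factor. Promoters of genes that rose at least 4-fold had a median of 8 CpG dinucleotides, against 20 over all promoters, and 48 of 311 of them held TATAAA (15.4%), against 7.28% of all. TTTGAA was present in 59 of these 311 (19%), against 11.8% of all.

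Most of the fall of the division genes lay between P12 and P24. Relative to P3, the mitosis list had a median of -0.27 at P6, -0.34 at P12 and -4.27 at P24, and the S phase list -0.65, -0.88 and -2.75. These comparisons share the P3 libraries. Plk1 had P3 values of 562 and 585, P6 values of 567 and 401, P12 values of 380.4 and 495 and P24 values of 16.3 and 17.2. Of the 327 genes that fell at least 8-fold, 61 were on the 2 division lists. Both P12 libraries were at or above 50% of the P3 mean in 132 of the 327, and 43 of these were on the division lists. The 2 lists do not hold every gene of cell division, so a gene outside them may still take part in it. Both P12 libraries were at or below 12.5% of the P3 mean in 42 of the 327, and 0 of these were on the division lists. Tnni1 was one of the 42, with P3 values of 44646 and 59147, P6 values of 21033 and 45058, P12 values of 886 and 3197 and P24 values of 28.5 and 33.2. Hey2, a repressor active in the compact layer of the ventricle, was another, with P3 values of 1581 and 1616, P6 values of 429.7 and 454, P12 values of 158 and 189.8 and P24 values of 201 and 171. Tnni1 was lower still at P24, whereas the P12 and P24 values of Hey2 overlapped.

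**Figure D3:**
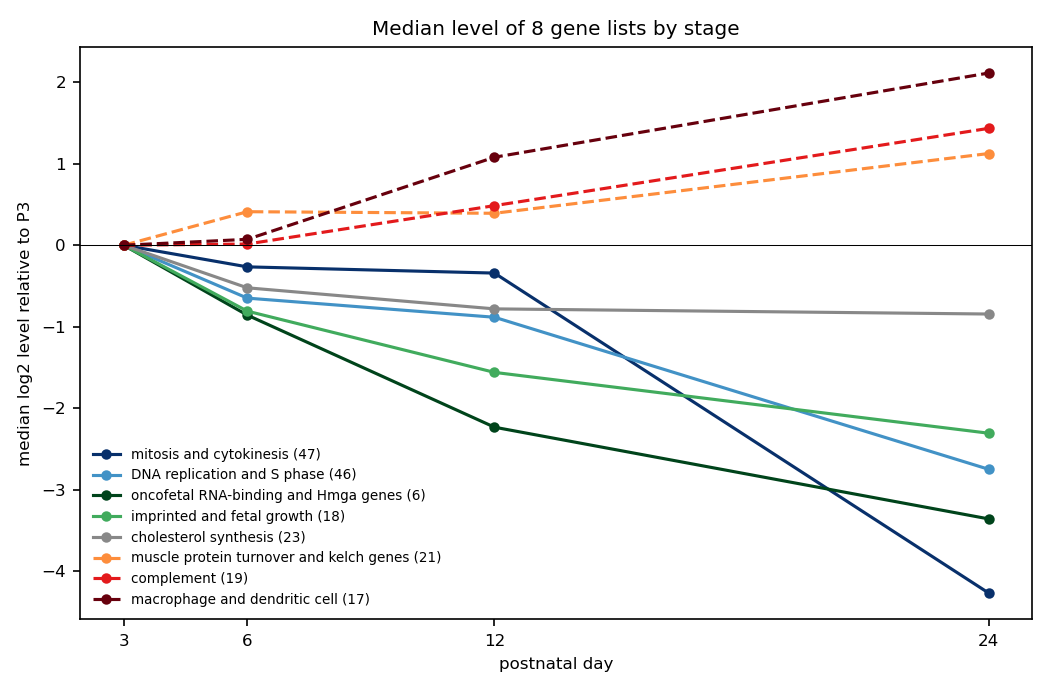
Median log2 level of the tested members of 8 gene lists relative to P3 (vertical axis) at postnatal days 3, 6, 12 and 24 (horizontal); each point is the median over the members of a list. The mitosis list lies at -0.34 at P12 and -4.27 at P24, whereas the oncofetal list is already at -2.23 at P12.

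Fetal growth genes and oncofetal RNA-binding genes also fell. Of 8 oncofetal genes, 6 were tested and these 6 fell, with a median of -3.36. Igf2bp3, which binds Igf2 messenger RNA, had 24.4 and 32.0 in P24 libraries, against 408 and 376 in P3 libraries (log2 change -3.76). Hmga2, an architectural chromatin protein of the embryo, had 0 and 1.23 in P24 libraries, against 46.4 and 67.7 in P3 libraries. Hmga2 and Igf2bp1 were below 10 in both P24 libraries, so they passed the filter through P3 alone and had to be lower at P24. The count of falls and the median include such members. The smallest change of the 6 was that of Hmga1 (log2 change -0.45). Of 18 tested imprinted and fetal growth genes, a list drawn up after values had been seen, 15 fell and 1 rose, with a median of -2.31. Mest, an imprinted gene of the hydrolase fold, had 374 and 449 in P24 libraries, against 5984 and 7355 in P3 libraries (log2 change -4.01 ± 0.22 (SE); BH-adjusted p = 3.34e-06). The riser was Dcn, decorin, with 20787 and 20971 in P24 libraries, against 11016 and 8944 in P3 libraries, a call lost without P3 replicate 2 (BH-adjusted p = 0.0593). In the insulin-like growth factor axis 8 of 17 tested genes fell and 5 rose, with 4 to 8 falling when a P24 or P3 library was left out. The growth factor Igf2 had 213 and 191 in P24 libraries, against 2799 and 1868 in P3 libraries (log2 change -3.50), and Grb10, an adaptor that dampens the receptor's signal, had 3109 and 3160.5 in P24 libraries, against 16573 and 14263 in P3 libraries (log2 change -2.29). The binding protein gene Igfbp3 lay on the other side, with 1225 and 1424 in P24 libraries, against 378 and 473 in P3 libraries (log2 change 1.64).

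Genes of sterol, serine and nucleotide synthesis fell and none of them rose. Of 23 genes of cholesterol synthesis and uptake, 17 fell and 0 rose, with a median of -0.84, and 9 to 12 fell when a P24 or P3 library was left out. Sqle, squalene epoxidase, had 118 and 132 in P24 libraries, against 551 and 525 in P3 libraries (log2 change -2.10 ± 0.17 (SE); BH-adjusted p = 2.19e-05). Both P3 libraries were several times higher than both P24 libraries. CCAAT was present in 15 of 16 matched promoters of the list (93.8%), against 38.6% of all promoters. That of Hsd17b7, a reductase of the pathway, is shown as the steepest fall among the matched genes whose promoter holds the box. It holds the box more than once (chr1:169969156-169969455, minus strand, RefSeq GRCm38.p6). Capitals mark ATTGG, the reverse of CCAAT.
Hsd17b7: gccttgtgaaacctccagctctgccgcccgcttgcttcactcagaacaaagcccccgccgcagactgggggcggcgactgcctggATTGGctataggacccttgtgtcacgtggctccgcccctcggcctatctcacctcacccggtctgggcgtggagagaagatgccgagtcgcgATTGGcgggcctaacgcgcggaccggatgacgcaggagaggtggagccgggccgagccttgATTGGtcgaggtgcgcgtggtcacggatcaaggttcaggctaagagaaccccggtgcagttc
Hsd17b7 had 688 and 722 in P24 libraries, against 1903 and 2001 in P3 libraries (log2 change -1.47 ± 0.15 (SE); BH-adjusted p = 8.69e-05). Of 25 genes of serine, one-carbon and nucleotide synthesis, 16 fell and 0 rose, with a median of -0.81. Psat1, an aminotransferase of serine synthesis, had 107 and 134 in P24 libraries, against 1099 and 1018 in P3 libraries (log2 change -3.13 ± 0.18 (SE); BH-adjusted p = 4.25e-06), and Mthfd1l, a mitochondrial folate enzyme, had 24.4 and 38.1 in P24 libraries, against 274 and 219 in P3 libraries (log2 change -2.97). Tyms, thymidylate synthase, which is also on the S phase list, fell by 2.92 on the log2 scale. Of 25 ribosome biogenesis genes 8 fell and 1 rose, and 0 to 2 fell and 0 rose when a P24 or P3 library was left out, while 19 fell when libraries were scaled by size alone.

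Many pairs of related genes shifted in share toward the member put first, but in only some did that member rise while the other fell. For 50 listed pairs of related genes, the share of the first was taken from FPKM, a level per gene length, as a percent of the pair in each library, with no test. Both members were tested in 47 pairs. The share of the first was higher in both P24 libraries than in both P3 libraries in 41 pairs, lower in 1 and overlapping in 5. The pairs were chosen with earlier results of these data known, and the member taken as the adult form was put first. The 41 therefore does not show how common such shifts are. In 13 pairs the first rose and the second fell, in 14 the first rose alone, and in 8 the second fell alone. Both members rose in 2 pairs, both fell in 3, and neither was called in 6. Rpl3l, the striated muscle form of ribosomal protein Rpl3, made up 63.9% and 59.5% at P24, against 2.10% and 2.69% at P3. In normalized counts Rpl3l had 7538 and 7009.7 in P24 libraries, against 201 and 282 in P3 libraries (log2 change 4.93 ± 0.25 (SE); BH-adjusted p = 2.37e-06), and Rpl3 had 8213 and 9232 in P24 libraries, against 18169 and 19675 in P3 libraries. The muscle form held the larger share at P24 and the general form at P3. Eef1a2, the translation elongation factor of muscle and neurons, made up, of its pair with Eef1a1, 45.7% and 49.6% at P24, against 7.41% and 5.81% at P3. Tuba4a, an alpha tubulin of mature muscle, made up, of its pair with Tuba1a, 82.1% and 83.8% at P24, against 31.9% and 31.1% at P3. Cox7a1, a muscle subunit of cytochrome c oxidase, made up, of its pair with Cox7a2, 79.5% and 78.2% at P24, against 46.1% and 48.7% at P3. Each of these shares was separate between the stages.

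Chromatin, channel and fuel genes were among the pairs as well. Ezh1, the Polycomb methyltransferase of resting cells, made up, of its pair with Ezh2, 78.3% and 75.8% at P24, against 35.2% and 38.9% at P3. Hk2, the hexokinase of insulin-responsive tissues, made up, of its pair with Hk1, 69.98% and 65.6% at P24, against 42.2% and 38.1% at P3. Scn4b, a sodium channel beta subunit, made up, of its pair with Scn3b, 82.7% and 74.4% at P24, against 22.1% and 17.98% at P3. All P24 shares of these pairs lay above all P3 shares. Esrrg and Esrrb, both estrogen-related receptors, made the one pair that moved the other way without overlap, and Esrrg made up 61.9% and 61.2% at P24, against 81.8% and 77.4% at P3. Esrrb itself had 908 and 859.6 in P24 libraries, against 233 and 278 in P3 libraries (log2 change 1.79 ± 0.16 (SE); BH-adjusted p = 4.22e-05). Myh6, the adult alpha myosin heavy chain, held, of its pair with Myh7, the fetal beta chain, 99.4% and 99.5% at P24, against 94.6% and 92.8% at P3. Its own level was not called (log2 change 0.23), while Myh7 had 4987 and 5468 in P24 libraries, against 44740 and 63140 in P3 libraries (log2 change -3.35). Near-identical members of a family can share reads, and how such reads were counted is not given in the sources used here.

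**Figure D4:**
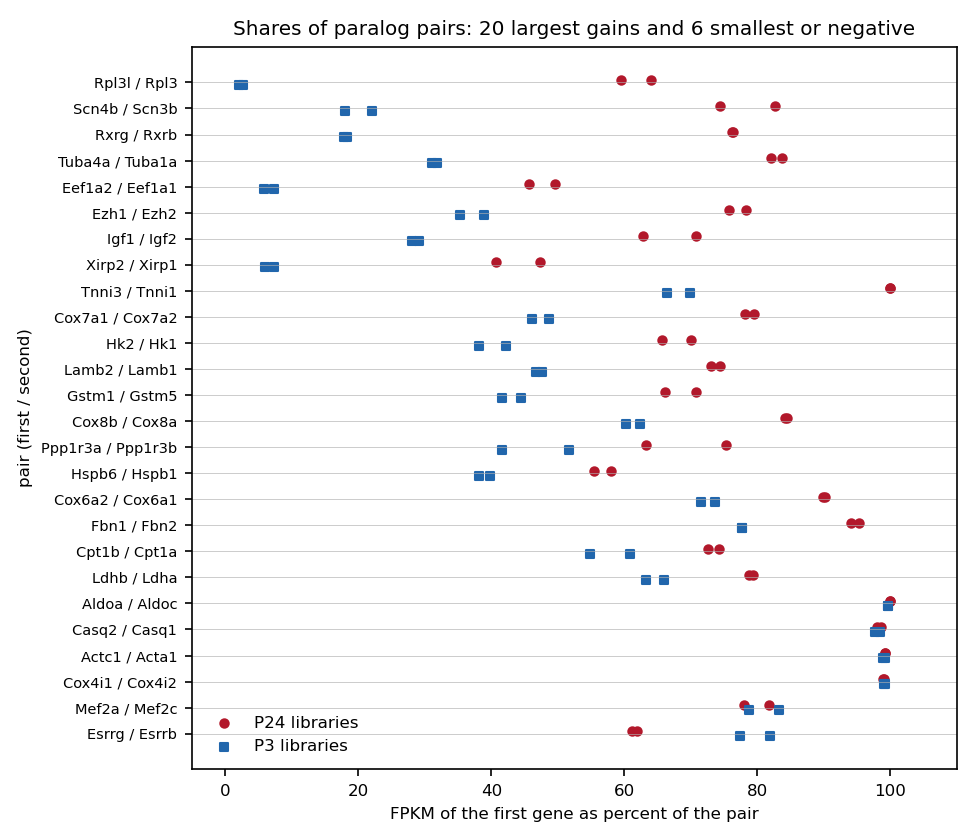
FPKM of the first gene as a percent of the sum of both genes of a pair (horizontal axis) in each library, for the 20 pairs with the largest gain at P24 and the 6 with the smallest gain or a loss; red circles are P24 libraries and blue squares P3 libraries. Rpl3l stands at 63.9% and 59.5% in P24 libraries and at 2.10% and 2.69% in P3 libraries, and Esrrg is the first member that lost share without overlap.

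Retinoid genes went both ways. Of 31 retinoid genes 22 were tested, of which 6 rose and 6 fell, and 2 to 5 fell when a P24 or P3 library was left out; the median of 0.28 turned to -0.07 when libraries were scaled by size alone. Among the enzymes that make retinoic acid, Aldh1a2, the main form of the embryonic heart and epicardium, had 381 and 394 in P24 libraries, against 1634 and 1666 in P3 libraries (log2 change -2.09 ± 0.13 (SE); BH-adjusted p = 6.11e-06). Aldh1a1, another form, had 515 and 626 in P24 libraries, against 184 and 129 in P3 libraries (log2 change 1.88 ± 0.24 (SE); BH-adjusted p = 0.000390). These enzymes lay on opposite sides, each without overlap. Lrat, which stores retinol as an ester, had 92.1 and 84.9 in P24 libraries, against 7.38 and 2.18 in P3 libraries (log2 change 4.11 ± 0.52 (SE); BH-adjusted p = 0.000363). Dhrs3, which turns retinaldehyde back into retinol, had 1539 and 1456 in P24 libraries, against 591 and 654 in P3 libraries (log2 change 1.27 ± 0.13 (SE); BH-adjusted p = 0.000119), and Adh1, an alcohol dehydrogenase that can oxidize retinol, had 211 and 200.4 in P24 libraries, against 69.6 and 62.2 in P3 libraries (log2 change 1.63). Both oxidoreductases were higher in each P24 library. Lrat was below 10 in both P3 libraries, so it passed the filter through P24 alone and had to be higher there. Rdh5 and Rdh11, retinol dehydrogenases, had log2 changes of 0.98 and -1.06. Cyp26b1, which degrades retinoic acid, had 61.0 and 89.8 in P24 libraries and 64.3 and 36.0 in P3 libraries and was not called. Cyp26a1 and Cyp26c1, of the same family, were below the filter.

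Of the retinoid receptors, Rxrg, the retinoid X receptor of striated muscle and brain, had 2592 and 2394 in P24 libraries, against 151 and 163 in P3 libraries (log2 change 3.98 ± 0.15 (SE); BH-adjusted p = 8.20e-07). Its share of its pair with Rxrb was 76.2% and 76.4% at P24, against 17.9% and 18.3% at P3, and it had P3 values of 151 and 163, P6 values of 708 and 876, P12 values of 1714 and 1652 and P24 values of 2592 and 2394. Rxrg was thus higher at each later stage, with no overlap between neighbouring stages. Rara, a retinoic acid receptor, had 329 and 268 in P24 libraries, against 793 and 567 in P3 libraries, and its call was lost without P24 replicate 2 and without P3 replicate 1, and it was kept in the other 6 fits with a library left out. Rxra, Rxrb, Rarb and Rarg were not called. The retinol binding protein gene Rbp7 and the synthesis enzyme Aldh1a3 were called lower, at -0.84 and -0.81, and each lost its call without P24 replicate 2 and in at least 1 other fit with a library left out. Rdh10, which makes retinaldehyde from retinol, was not called. Dhrs9, Adh7, Rbp4, Crabp1, Crabp2, Stra6 and Bco1 were below the filter.

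Genes of excitation and calcium cycling rose more often than they fell. Of 31 action potential channel genes, 14 rose and 5 fell, with a median of 0.30 that turned to -0.04 when libraries were scaled by size alone. Of 29 tested genes of the T-tubule, dyad and sarcoplasmic reticulum, 13 rose and 5 fell, with a median of 0.42. When libraries were scaled by size alone, 10 of them rose and 8 fell, with a median of 0.07. Kcnd3, a pore subunit of the transient outward potassium current, had 659.8 and 664 in P24 libraries, against 43.3 and 39.3 in P3 libraries (log2 change 3.97 ± 0.28 (SE); BH-adjusted p = 1.17e-05). Kcne1, an accessory subunit of slow potassium channels, had 1059.5 and 772 in P24 libraries, against 5759.8 and 6816 in P3 libraries (log2 change -2.79 ± 0.24 (SE); BH-adjusted p = 4.03e-05). These potassium channel genes lay on opposite sides. Hrc, a calcium-binding protein of the sarcoplasmic reticulum, had 33605 and 34418 in P24 libraries, against 7211 and 8267 in P3 libraries (log2 change 2.14 ± 0.17 (SE); BH-adjusted p = 2.20e-05). Tcap, telethonin of the Z-disc and T-tubule, and S100a1, a calcium sensor, had log2 changes of 1.59 and 1.57. Fkbp1b, calstabin of the ryanodine receptor, had 12.2 and 29.5 in P24 libraries, against 88.6 and 74.2 in P3 libraries (log2 change -2.03). The calcium channel genes Cacna1h (T-type) and Cacna1d (L-type) had log2 changes of -1.42 and -1.36. Ryr2, the ryanodine receptor, was not called.

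Junction and microtubule genes held strong single changes. Of 24 genes of the intercalated disc and cell junctions 3 rose and 4 fell, with a median of -0.20, while 13 fell when libraries were scaled by size alone, 9 under quantile normalization and 10 in a fit of the P24 and P3 libraries alone. Xirp2, an actin-binding protein of the disc, had 9939 and 11801 in P24 libraries, against 1583 and 1356 in P3 libraries (log2 change 2.88 ± 0.21 (SE); BH-adjusted p = 1.52e-05), and Gja5, the connexin of conduction tissue and atria, had 213 and 258 in P24 libraries, against 746 and 645 in P3 libraries (log2 change -1.56). Of 17 tubulins and microtubule regulators 9 fell and 3 rose, with a median of -0.86. Tuba8, a muscle and testis alpha tubulin, had 5613 and 6719.5 in P24 libraries, against 417 and 426 in P3 libraries (log2 change 3.86 ± 0.14 (SE); BH-adjusted p = 8.20e-07). Tubb2b, a beta tubulin of neurons and immature cells, had 175 and 181 in P24 libraries, against 3109.9 and 3434 in P3 libraries (log2 change -4.19 ± 0.21 (SE); BH-adjusted p = 2.37e-06). The tubulins were thus separated without overlap in both directions. Stmn1, which destabilizes microtubules, fell by 3.63 on the log2 scale.

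Muscle protein turnover genes were among the lists with the highest share of rises. Of 21 tested ubiquitin ligase, kelch and ankyrin repeat genes, 14 rose and 2 fell, with a median of 1.13. Trim54, a ring-finger protein of the sarcomere, had 3506 and 3279.8 in P24 libraries, against 182 and 236 in P3 libraries (log2 change 4.02 ± 0.16 (SE); BH-adjusted p = 9.60e-07), while its relative Trim55 had 3512 and 3724 in P24 libraries, against 8219 and 9339 in P3 libraries (log2 change -1.28). Asb15, an adaptor of ubiquitin ligases in muscle, had 2275 and 2192 in P24 libraries, against 232 and 294 in P3 libraries (log2 change 3.09). Ankrd1, a stress-responsive ankyrin repeat protein, fell by 1.20 on the log2 scale. Of 18 heat shock and small chaperone genes 6 rose and 2 fell, with 4 to 5 rising and 1 to 3 falling when a P24 or P3 library was left out and a median of 0.17 that turned to -0.18 when libraries were scaled by size alone. Hspb8, a small heat shock protein that works with Bag3 in muscle, had 12998 and 11887 in P24 libraries, against 1505 and 1780.4 in P3 libraries (log2 change 2.92 ± 0.15 (SE); BH-adjusted p = 2.82e-06). Of 27 tested chaperone and secretion genes of the endoplasmic reticulum 10 fell and 2 rose, with 4 to 6 falling when a P24 or P3 library was left out and 18 when libraries were scaled by size alone. Fkbp10, a collagen chaperone, had a log2 change of -1.86.

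Of 22 tested genes of triglyceride storage and lipolysis, 11 rose and 2 fell, with a median of 0.53, against 10 and 5 when libraries were scaled by size alone. Lpl, lipoprotein lipase, had 111050 and 93658 in P24 libraries, against 31231 and 28769 in P3 libraries (log2 change 1.77 ± 0.20 (SE); BH-adjusted p = 0.000197). Angptl4, an inhibitor of that lipase, had 508 and 307 in P24 libraries, against 2116 and 2227 in P3 libraries (log2 change -2.45 ± 0.24 (SE); BH-adjusted p = 7.54e-05). The lipase was higher and its inhibitor lower in each P24 library. Of 13 genes of ketone body and monocarboxylate use, 7 rose and 2 fell, and 4 rose when a P24 or P3 library was left out; 4 rose and 3 fell when libraries were scaled by size alone. Oxct1, the enzyme that lets tissues burn ketone bodies, had 44005 and 45109 in P24 libraries, against 8394 and 7780 in P3 libraries (log2 change 2.46 ± 0.17 (SE); BH-adjusted p = 8.96e-06). Both P24 libraries lay several times above both P3 libraries. Ldhd, which oxidizes D-lactate, had 1203 and 1099 in P24 libraries, against 98.1 and 97.2 in P3 libraries (log2 change 3.54).

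Of 28 genes of mitochondrial dynamics and import, 14 rose and 0 fell, with a median of 0.50; 4 to 6 rose when a P24 or P3 library was left out, and 5 rose and 2 fell when libraries were scaled by size alone. Pink1, a kinase that marks damaged mitochondria, had 20105 and 18984 in P24 libraries, against 5214 and 5700.5 in P3 libraries (log2 change 1.84 ± 0.15 (SE); BH-adjusted p = 3.22e-05), and Mfn1, a fusion protein, had 13391 and 13377 in P24 libraries, against 6321 and 6346 in P3 libraries (log2 change 1.08 ± 0.14 (SE); BH-adjusted p = 0.000392). Of 78 mitochondrial ribosomal protein genes 20 rose (25.6%) and 0 fell; 1 to 6 rose when a P24 or P3 library was left out, 3 rose and 1 fell when libraries were scaled by size alone, and 57 rose in a fit of the P24 and P3 libraries alone. Of 80 tested cytoplasmic ribosomal protein genes 0 rose and 4 fell; 35 fell when libraries were scaled by size alone, 19 under quantile normalization, and 48 in a fit of the P24 and P3 libraries alone. Of 39 tested Slc25 carriers of the inner membrane 16 rose and 5 fell, with 9 to 14 rising and 2 to 3 falling when a P24 or P3 library was left out, and with 9 rising, 12 falling and a median of -0.06, against 0.29, when libraries were scaled by size alone. Slc25a29, a carrier of basic amino acids, had 355 and 208 in P24 libraries, against 40.1 and 36.0 in P3 libraries (log2 change 2.81). Of 35 antioxidant and glutathione genes 14 rose and 5 fell, with 8 to 9 rising and 2 to 3 falling when a P24 or P3 library was left out, and 9 rising and 9 falling when libraries were scaled by size alone. Gstk1, a glutathione transferase of mitochondria and peroxisomes, had 1620.3 and 1825 in P24 libraries, against 268 and 237 in P3 libraries (log2 change 2.77 ± 0.26 (SE); BH-adjusted p = 6.09e-05). Its P24 values were several times its P3 values.

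Regulators of transcription split by class. Of 25 nuclear receptors and coactivators of metabolism, 11 rose and 1 fell, with a median of 0.32 that turned to -0.03 when libraries were scaled by size alone. Thrb, thyroid hormone receptor beta, had 557 and 632 in P24 libraries, against 100.2 and 57.9 in P3 libraries (log2 change 2.94 ± 0.32 (SE); BH-adjusted p = 0.000139), and Lpin1, a coactivator that is also a phosphatidate phosphatase, had 5261 and 4904 in P24 libraries, against 834 and 1009 in P3 libraries (log2 change 2.47 ± 0.21 (SE); BH-adjusted p = 3.97e-05). Of 25 tested cardiac transcription factors, 8 fell and 1 rose, and 4 to 7 fell when a P24 or P3 library was left out. Hey2 had a log2 change of -3.10, and the riser Klf15, a metabolic and antihypertrophic factor, had 833 and 765 in P24 libraries, against 294 and 271 in P3 libraries (log2 change 1.50). Nkx2-5 and Tbx5, core factors of the heart muscle program, were not called. Of 28 DNA methylation and chromatin genes 11 fell and 4 rose, with 1 to 2 rising when a P24 or P3 library was left out and 1 when libraries were scaled by size alone. Uhrf1, which recruits the maintenance methyltransferase to replicated DNA, had 69.1 and 89.8 in P24 libraries, against 2303 and 1936 in P3 libraries (log2 change -4.73 ± 0.24 (SE); BH-adjusted p = 2.74e-06), and it is also on the S phase list. Cbx7, a Polycomb reader, had 616 and 536 in P24 libraries, against 69.6 and 80.8 in P3 libraries (log2 change 2.92 ± 0.19 (SE); BH-adjusted p = 7.18e-06). The P24 libraries were low in the first and high in the second. Of 17 tested clock genes 3 rose and 4 fell, with 2 to 4 falling when a P24 or P3 library was left out and a median of 0.18 that turned to -0.17 when libraries were scaled by size alone. Arntl, the clock activator also called Bmal1, had 1171 and 1085 in P24 libraries, against 233 and 236 in P3 libraries (log2 change 2.26 ± 0.14 (SE); BH-adjusted p = 6.93e-06), while the repressors Per2 and Per3 had log2 changes of -1.03 and -1.47. The labels give no hour of day for the tissue. Of 21 muscle splicing regulators 7 fell and 2 rose, with 4 to 5 falling and 0 to 1 rising when a P24 or P3 library was left out and 12 falling when libraries were scaled by size alone. Mbnl3, of the muscleblind family, had 21.7 and 34.4 in P24 libraries, against 135 and 103 in P3 libraries (log2 change -2.07).

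Of 32 tested ligands and inhibitors of the TGF-beta, BMP and Wnt families, 16 fell and 1 rose, with a median of -0.92, and 0 to 5 rose when a P24 or P3 library was left out. Bmp7 had 89.4 and 81.2 in P24 libraries, against 726 and 723 in P3 libraries (log2 change -3.07 ± 0.29 (SE); BH-adjusted p = 6.13e-05), and Inhba, the activin A subunit, had 88.1 and 70.1 in P24 libraries, against 571 and 315 in P3 libraries (log2 change -2.42). Of 29 tested neuregulin, Notch and Hippo genes 6 rose and 4 fell, with 2 to 4 rising when a P24 or P3 library was left out; the median of 0.08 turned to -0.27 when libraries were scaled by size alone and to -0.05 with a term for Y-linked reads. Tead2, a partner of the Hippo effector Yap, had 205 and 178 in P24 libraries, against 1454 and 1449.7 in P3 libraries (log2 change -2.92 ± 0.16 (SE); BH-adjusted p = 3.06e-06), and Erbb2, a receptor of neuregulin signals, had a log2 change of -1.33. Of 31 tested hormone and autonomic signalling genes 13 rose and 6 fell, with 8 to 9 rising and 2 to 4 falling when a P24 or P3 library was left out, and with 9 rising, 10 falling and a median of -0.11, against 0.24, when libraries were scaled by size alone. Adra1a, an alpha-1 adrenergic receptor, had 452 and 346 in P24 libraries, against 32.7 and 21.8 in P3 libraries (log2 change 3.84 ± 0.41 (SE); BH-adjusted p = 0.000140). Agtr2, the angiotensin receptor best known from fetal tissue, had 4.06 and 0 in P24 libraries, against 93.9 and 49.1 in P3 libraries. The adrenergic receptor was higher in each P24 library. Agtr2 was below 10 in both P24 libraries, so it passed the filter through P3 alone and had to be lower at P24.

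Matrix genes of elastic fibers and basement membrane fell in 15 of 31 tested cases and rose in 4, with a median of -0.78; 1 to 2 rose when a P24 or P3 library was left out and 1 when libraries were scaled by size alone. Fbn2, the fibrillin of developing tissue, had 238 and 339 in P24 libraries, against 3877 and 3023 in P3 libraries (log2 change -3.58 ± 0.34 (SE); BH-adjusted p = 6.19e-05), and Mfap2, a microfibril protein, had 153 and 151 in P24 libraries, against 1259.6 and 1065 in P3 libraries (log2 change -2.92). Eln, elastin, had 3690.5 and 4117 in P24 libraries, against 26591 and 8780 in P3 libraries (log2 change -1.97 ± 0.41 (SE); BH-adjusted p = 0.00551), and without P3 replicate 1, its highest library, the log2 change was -1.17 (BH-adjusted p = 0.00879). Col1a1 had a log2 change of -2.41 with a BH-adjusted p of 0.0197, and its call was lost without P24 replicate 1, without P24 replicate 2 and without P3 replicate 1, where the adjusted p was highest at 0.156. Lamb3, a laminin chain, was the largest rise of the list, with 753 and 743 in P24 libraries, against 208 and 189.9 in P3 libraries (log2 change 1.91).

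**Figure D5:**
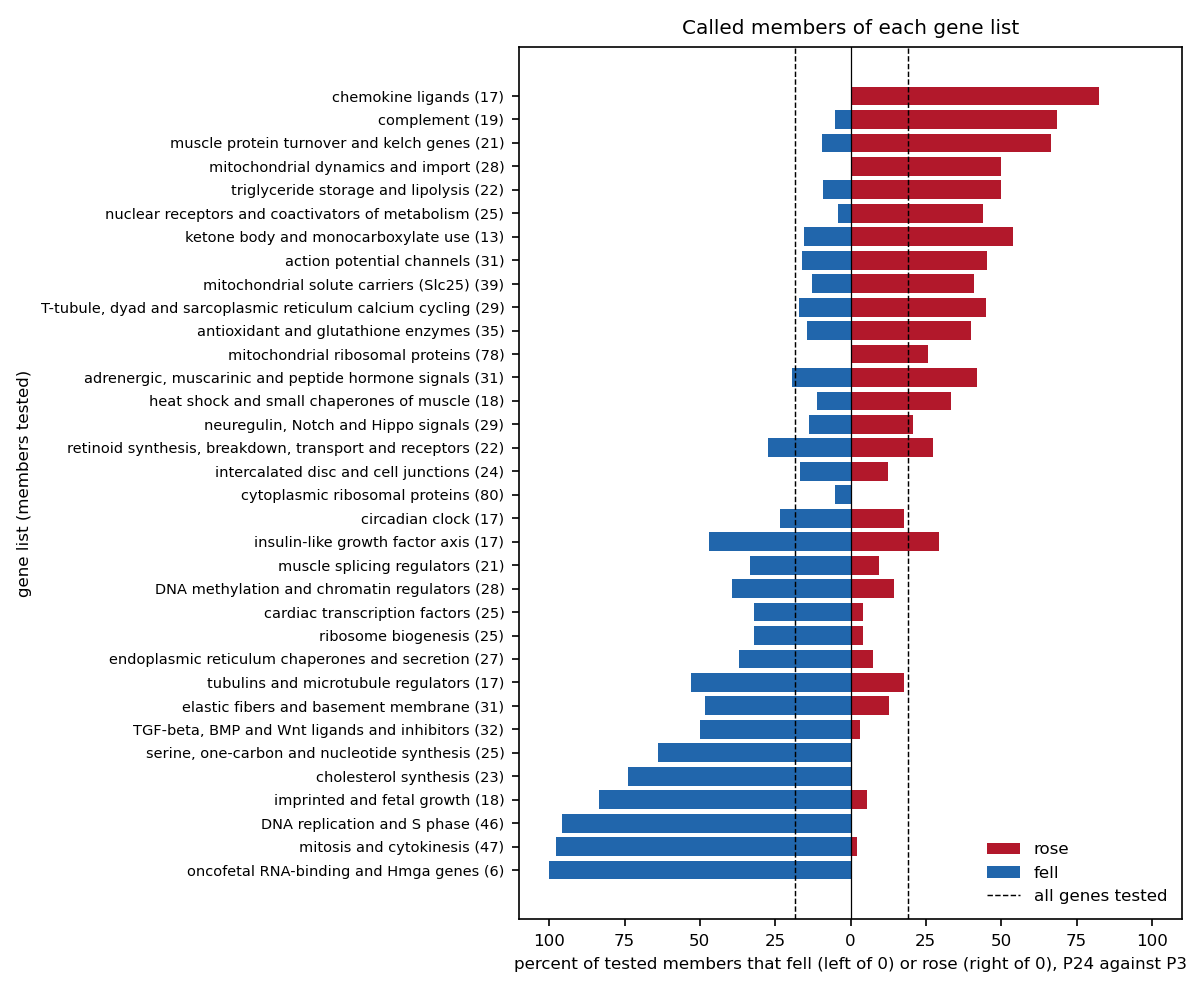
Percent of the tested members of each process list that fell (left of 0, blue) or rose (right of 0, red) at P24 against P3, with the number tested in parentheses; dashed lines mark the 18.5% of all genes that fell and the 19.0% that rose. The cell division, oncofetal and imprinted lists reach furthest to the left, and the chemokine, complement and muscle protein turnover lists furthest to the right.

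Macrophage, complement and chemokine lists held mostly rises. Of 17 tested macrophage and dendritic cell markers 13 rose and 0 fell, with a median of 2.11. The summed level of all 18 listed markers was 15167 and 14997 in P24 libraries and 4743 and 3878 in P3 libraries. Mgl2, a lectin of macrophages and dendritic cells, had 607 and 485 in P24 libraries, against 5.27 and 1.09 in P3 libraries (log2 change 7.23 ± 0.55 (SE); BH-adjusted p = 1.87e-05), and Timd4, a receptor for dying cells on resident macrophages, had 90.8 and 82.4 in P24 libraries, against 2.11 and 3.27 in P3 libraries (log2 change 4.58). Of 19 tested complement genes 13 rose and 1 fell, with a median of 1.43, and 0 to 1 fell when a P24 or P3 library was left out. C1ra, a protease of the first component, had 428 and 446 in P24 libraries, against 60.1 and 55.7 in P3 libraries (log2 change 2.90 ± 0.18 (SE); BH-adjusted p = 6.11e-06), and C7, a component of the membrane attack complex, had 54.2 and 107 in P24 libraries, against 15.8 and 9.82 in P3 libraries (log2 change 2.52). These genes were low in both P3 libraries. The list of chemokine ligands was formed by symbol after values were seen, and 17 of its 39 members were tested. Of these 14 rose and 0 fell, and 9 to 11 rose when a P24 or P3 library was left out. Ccl24, an attractant of eosinophils, had 69.1 and 83.6 in P24 libraries, against 7.38 and 2.18 in P3 libraries (log2 change 3.90), and Ccl12, an attractant of monocytes, had 93.5 and 98.4 in P24 libraries, against 7.38 and 8.73 in P3 libraries (log2 change 3.42). Mgl2, Timd4, Ccl24 and Ccl12 were below 10 in both P3 libraries, so they passed through P24 alone and had to be higher there. The counts of rises in these lists include such members. The summed macrophage level moved with both the complement and the chemokine genes, and its part in them was not tested.

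Markers of other cell types moved less evenly. Of 14 fibroblast markers 7 rose and 1 fell, with summed levels of 90268 and 85543 in P24 libraries and 34744 and 29625 in P3 libraries. Gsn alone supplied 55061 and 50038 of the P24 sums and 7170.2 and 7076 of the P3 sums. Pi16, of a fibroblast subset around vessels, had 3124 and 2768 in P24 libraries, against 295 and 279 in P3 libraries (log2 change 3.35 ± 0.14 (SE); BH-adjusted p = 9.60e-07), and Gsn, gelsolin, which severs actin filaments, was separated between stages (log2 change 2.88 ± 0.16 (SE); BH-adjusted p = 3.42e-06). The faller was Tcf21, a fibroblast lineage factor, with 482 and 485 in P24 libraries, against 1142 and 984 in P3 libraries (log2 change -1.13). Of 20 endothelial markers 2 rose and 1 fell, with summed levels of 75574 and 80646 in P24 libraries and 72524 and 78507 in P3 libraries. Of 14 cardiomyocyte markers 3 rose and 0 fell, with 0 to 1 rising when a P24 or P3 library was left out, and the median of 0.23 turned to -0.12 when libraries were scaled by size alone and to -0.27 under quantile normalization. Of 13 pericyte and smooth muscle markers 4 rose and 5 fell, with 3 to 4 falling when a P24 or P3 library was left out. Vtn, vitronectin of pericytes, had 1099 and 1260.5 in P24 libraries, against 198 and 241 in P3 libraries (log2 change 2.42), and Cnn1, calponin of smooth muscle, had 29.8 and 23.4 in P24 libraries, against 438 and 294 in P3 libraries (log2 change -3.71). Of 13 epicardial markers 4 fell and 0 rose, among them the keratin Krt18 with 31.2 and 14.8 in P24 libraries, against 258 and 278 in P3 libraries (log2 change -3.58) and Aldh1a2. Of 8 tested granulocyte and mast cell markers 5 fell and 0 rose, and Cma1, the mast cell chymase, had 50.1 and 68.9 in P24 libraries, against 405 and 219 in P3 libraries (log2 change -2.32). Of 7 tested atrial markers 3 fell and 0 rose. The summed level of all 9 listed atrial markers was 17226 and 16608 in P24 libraries and 33476 and 23091 in P3 libraries, highest in P3 replicate 1. Erythroid markers summed to 30520 and 24690 in P24 libraries and 15014 and 40902 in P3 libraries, so the groups overlapped.

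The rises differed in their timing. Of the 399 genes that rose at least 4-fold, 55 had both P12 libraries at or below 25% of the P24 mean. Ces1d, a carboxylesterase that can hydrolyse triglyceride, had P3 values of 21.1 and 21.8, P6 values of 25.3 and 119.6, P12 values of 179 and 121 and P24 values of 4333 and 4933. Gsn had P3 values of 7170.2 and 7076, P6 values of 7114 and 8043, P12 values of 8716 and 7047 and P24 values of 55061 and 50038. Xdh, xanthine dehydrogenase of purine breakdown, had P3 values of 108 and 68.8, P6 values of 107 and 75.7, P12 values of 207 and 125 and P24 values of 1242 and 1379. In these genes the P12 libraries were far below the P24 libraries. Both P12 libraries were at or above the P24 mean in 14 of the 399. Hmcn2, a hemicentin of the matrix, had P3 values of 68.6 and 58.9, P6 values of 835 and 375, P12 values of 1919.9 and 1517 and P24 values of 963 and 1142, and Trim7, a ring-finger protein that binds glycogenin, had P3 values of 149.8 and 167, P6 values of 393 and 444, P12 values of 1417 and 1109 and P24 values of 979.5 and 883. Their highest libraries were at P12.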

How the data were processed

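Poly(A) RNA of whole ventricle was sequenced in 8 libraries, 2 each for P3, P6, P12 and P24, and stage was taken from the titles. Tools listed in the submitters' processing notes are STAR 2.7.3a, Trim Galore 0.6.4, DESeq2 1.32.0 and HTSeq 0.11.2, with build GRCm39. Per the file headers, the authors deposited a signal per gene that is a normalized count, together with FPKM. Strandedness and the annotation release are not given in the sources used here. Dividing each normalized count by the value of 1 read gave whole reads for 100% of values (tolerance 0.001), and these totals are the depths given. Floors cover counting error only, while each SE comes from the limma fit and reflects the spread among libraries.

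The test was limma 3.58.1 in R 4.3.3 with a mean-variance trend on log2(normalized count + 1), all 8 libraries in 1 fit with stage as factor, with Benjamini-Hochberg adjustment over all genes tested. Such a fit has 4 residual degrees of freedom. The design assumed normalized values, so the count tests edgeR 4.0.16 and DESeq2 1.42.0 were run on the recovered reads as alternatives. In simulated data of 13577 genes for P24 against P3, 46 of 48 genes with a log2 change of -2, 49 of 50 with 2, 31 of 48 with -1 and 31 of 50 with 1 were called, and 12 of 13381 unchanged genes. In that simulation 13381 of the 13577 genes were unchanged, whereas 37.5% of genes were called in the data. BH adjustment is stricter where few genes change, so these rates do not carry over to the data.

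Members and lists were chosen with earlier results of these data known. Named genes are the 20 largest rises and falls with a mean of at least 100, the 3 largest called changes each way in a list, members against their list, the retinoid genes, up to 8 genes each way at 0 in one stage, the 10 most abundant genes and the listed pairs. Cenpa, Col1a1, Hmcn2, Hmmr, Irx4, Trim7 and Xdh were chosen after their values were seen. Promoter sequences are from RefSeq, GRCm38.p6, and were matched by symbol, since coordinates of the 2 builds are not interchangeable. A few of the genes so selected have been left out of the text.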

Additional observations from a re-analysis of the deposited data

How the results depend on the processing

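Against 5181 changed genes, of which 2624 rose and 2557 fell, leaving out 1 library at a time gave 3059 to 7802 changed genes, with 1478 to 3910 rising and 1555 to 3892 falling. Leaving out both P6 libraries gave 7798 changed and 3885 falling genes. Library size alone gave 1510 rising and 4983 falling genes, and the cause was not tested. The other alternatives kept the 4 counts within 1.5 times their value: edgeR called 5178 genes, DESeq2 5239, TMM 5198, quantile normalization 5131 and the P24 and P3 libraries alone 7603. Under quantile normalization the log2 changes of mt-Co1, mt-Nd4 and Myl2 left the direction they had with the deposited scaling. They were 0, -0.016 (BH-adjusted p = 0.974) and -0.72 (BH-adjusted p = 0.00865). Quantile normalization gives genes of equal rank the same value in every library. With a term for Y-linked reads, 5146 genes were called, 4686 of them among the 5181.

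The replicate numbers are not said to pair libraries, and the deviations of same-numbered libraries correlated at 0.055 for P3 with P24 and at -0.016 to 0.25 over the 6 pairs of stages, 4 of them above 0.1. A fit with the replicate number as a block gave 5609 changed genes, 5161 of them among the 5181.

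With 2 libraries a stage the spread is estimated over all stages. Genes that changed by a log2 of 1 were often missed in simulated data. Far fewer genes changed there than were called here, so that rate does not carry over. Of 302 named calls, 226 held whichever of the 8 libraries was omitted.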
